A study of Mus musculus with 18 samples.

Results

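The genes described here encode subunits and assembly factors of respiratory complex I, the NADH:ubiquinone oxidoreductase of mitochondria. The rule that chose them uses gene names, not measured values. It takes every probe set of the Affymetrix mouse arrays 430A and 430B whose annotation gives 1 gene symbol that starts with Nduf. It was set with earlier results of these data known. The rule found 88 of 45265 probe sets, 74 on chip 430A and 14 on chip 430B, which stand for 44 genes. Of these, 78 probe sets belong to 36 genes for subunits and 10 to 8 genes for the assembly factors named Ndufaf. The 36 include Ndufa4 and Ndufa4l2, which are described apart below but stay in the counts and medians of all members and of the subunits. After a filter on low signal 84 of the 88 remained for testing, and each of the 44 genes kept at least 1 probe set. A further 10 probe sets that carry an Nduf symbol together with another symbol were left out of every count. The subunits encoded by mitochondrial DNA were not analysed here.

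The study measured RNA from the hearts of male mice that carry 2 transgenes, Tet-myrAkt1 and αMHC-tTA. The first encodes an activated, membrane-bound form of the kinase Akt1 under a promoter that needs the tTA factor, and the second makes tTA in heart muscle cells, so that Akt1 can be switched on in those cells and in no other cell type by design. Mice of all 3 groups carry both transgenes, the controls included. AAC is an operation that narrows the aorta and loads the heart with pressure. The control hearts were taken before AAC from mice of 8 weeks. The 4wkpost hearts were taken 4 weeks after AAC from mice labelled 12 weeks old. The 3wkAkt/6wkpost hearts were taken 6 weeks after AAC with Akt switched on. Their titles give 3 weeks of Akt, their descriptions 2 weeks, and they too are labelled 12 weeks old, although they were taken later than the 4wkpost hearts. Each group has 3 samples, called hearts here, and each was hybridized to both chips. The labels do not say whether tissue was pooled or whether the atria were included, so the p-values measure the spread between these samples. No sham-operated hearts are among the samples: the operation, the time since it and the age of the mice cannot be told apart, and the effect of Akt cannot be told apart from that of 2 more weeks after AAC. The description of 4wkpost replicate 3 carries the number 1.

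Complex I takes electrons from NADH and passes them to ubiquinone while it pumps protons across the inner mitochondrial membrane. Its peripheral arm reaches into the matrix and holds the flavin and the iron-sulfur clusters, and its membrane arm holds the proton channels. The core subunits carry out catalysis, the supernumerary subunits surround and stabilise them, and assembly factors build the complex without staying in it. The heart is rich in this enzyme because it makes most of its ATP by oxidative phosphorylation. Levels are given as log2 of the MAS5 signal plus 32, on which a difference of 1 is 2-fold. A probe set is said to have risen or fallen, or to be called, where the adjusted p of limma is under 0.05. The fit covers all 27083 probe sets past the filter, and adjustment is by Benjamini-Hochberg. Levels of different probe sets were not set against each other, since probes bind with different strength.

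The promoters of 39 of the 44 genes were found in the RefSeq table of build GRCm38.p6. They were searched on both strands, from 250 bases before to 50 bases after the gene start, for short core motifs of factors known to act on mitochondrial genes. GCATGCG, a core of the NRF1 site, was found in 4 of 39 genes (10.3%) and in 4.01% of all 27025 genes of the table. AAGGTCA, the site of estrogen-related receptors, was found in 3 (7.69%, against 5.38%). CCGGAAG, bound by ETS factors such as GABP, was found in 6 (15.4%, against 9.93%), and AAGATGG, a core of the YY1 site, in 7 (17.9%, against 7.28%). None of the 7 YY1 matches lies within the 250 bases before the gene start, so they fall after it or across it. The same holds for the NRF1 match of Ndufaf5 and the ETS match of Ndufs8. A match is a description, not a site shown to be bound. The windows below hold 1 match each. They show the 250 bases before the gene start for 3 genes whose probe sets fell, 1 for each of 3 motifs, with the motif in capitals; these genes were chosen after their values were seen. The Ndufa6 window is chr15:82354292-82354541 on the minus strand and holds the NRF1 core. The Ndufb2 window is chr6:39592315-39592564 on the plus strand with the receptor site. The Ndufb7 window is chr8:83566508-83566757 on the plus strand with the ETS core.
Ndufa6: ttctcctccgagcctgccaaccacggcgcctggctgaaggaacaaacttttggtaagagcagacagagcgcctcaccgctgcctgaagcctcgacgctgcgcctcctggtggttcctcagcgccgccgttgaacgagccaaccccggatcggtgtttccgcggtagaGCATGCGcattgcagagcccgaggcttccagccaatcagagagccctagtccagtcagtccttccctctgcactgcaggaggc
Ndufb2: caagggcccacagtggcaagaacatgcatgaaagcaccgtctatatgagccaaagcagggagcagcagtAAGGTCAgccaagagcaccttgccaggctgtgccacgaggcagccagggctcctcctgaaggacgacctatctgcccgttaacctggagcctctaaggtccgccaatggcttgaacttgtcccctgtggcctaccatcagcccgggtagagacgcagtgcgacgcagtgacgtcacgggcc
Ndufb7: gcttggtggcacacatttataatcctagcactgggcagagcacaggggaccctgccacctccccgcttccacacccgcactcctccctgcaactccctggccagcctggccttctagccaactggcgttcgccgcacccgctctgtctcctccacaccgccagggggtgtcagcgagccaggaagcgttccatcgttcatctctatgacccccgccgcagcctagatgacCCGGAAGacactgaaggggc

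Several measures of whole arrays bear on what follows. The probe set 1425711_a_at of Akt1 read 9.53, 8.70 and 9.04 before AAC, 9.24, 9.74 and 9.89 at 4 weeks, and 11.37, 11.89 and 12.68 with Akt on, a difference with Akt on of 2.36 (adjusted p = 0.00312) from the 4wkpost hearts, while the other 2 Akt1 probe sets past the filter were not called. Heart muscle markers were bright in all hearts, with a mean log2 level from 13.39 to 13.88. Replicates of 1 group correlated at 0.95 to 0.975 on chip 430A and at 0.881 to 0.939 on chip 430B. The 3' to 5' signal ratio of the β-actin control probe sets, a measure of RNA integrity, was 1.49 to 2.04 in control hearts, 1.14 to 1.21 in 4wkpost hearts and 1.04 to 1.22 with Akt on (chip 430A). The control hearts did not overlap either other group (exact two-sided permutation p = 0.1, the smallest that 3 against 3 allows; 0.229 after adjustment over 39 such tests). On chip 430B the ratio was 1.45 to 1.86, 1.16 to 1.51 and 1.11 to 1.26, so control and 4wkpost hearts overlap there. With the log2 of each chip's own ratio as a covariate no complex I probe set was called in any comparison. Of all 27083 probe sets 2 were called at 4 weeks, 357 between 4 weeks and Akt and 0 with Akt on against control. The median difference of the 84 moved to -0.28 at 4 weeks and -0.40 with Akt on against control. The ratio sets the control hearts apart from the later groups, fully on chip 430A and in part on chip 430B. In the comparisons with control its part and that of the groups cannot be told apart. The 4wkpost and Akt hearts overlap in it on both chips. The same ratio for Gapdh sets the control hearts apart on both chips. On chip 430A it was 1.07 to 1.32, 0.83 to 0.89 and 0.81 to 0.93 in control, 4wkpost and Akt hearts. On chip 430B it was 0.95 to 1.15, 0.85 to 0.92 and 0.77 to 0.93. The atrial markers were uneven within each group: Sln, at probe set 1420884_at, read 5.84, 14.21 and 12.91 before AAC, 13.49, 8.56 and 5.18 at 4 weeks, and 13.50, 5.49 and 9.30 with Akt on. Of the markers of brown fat, another tissue rich in mitochondria, Ucp1, Elovl3 and Otop1 were below the filter. Cidea, at 1417956_at, passed it and rose with Akt on, by 0.63 (adjusted p = 0.0427) against 4 weeks and 0.48 (adjusted p = 0.0468) against control. Cox7a1 and Cox8b, on the same list but also subunits of complex IV, passed it too and went the other way. Both were called lower with Akt on against control, and Cox8b also at 4 weeks. The mean log2 level of the brown fat markers past the filter was 12.62 before AAC, 12.272 at 4 weeks and 12.275 with Akt on. The part of brown fat in the complex I values was not tested.

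At 4 weeks after AAC most complex I probe sets lay somewhat below their level before it, and the called ones were mostly small subunits of the membrane arm. Of 84 probe sets 9 fell and 1 rose (11.9%), where 4.43% of all probe sets tested were called, 1.68% lower and 2.75% higher. The 9 that fell stand for Ndufa1, Ndufa13, Ndufb11, Ndufb2 with 2 probe sets, Ndufb7, Ndufb9, Ndufc1 and Ndufv3, and the 1 that rose for Ndufc2. The median difference of the 84 was -0.17, beside -0.04 for all probe sets, and 57 of 84 were below 0. No overlap between the hearts of one group and the other was seen for 33 of 84 (28 lower, 5 higher), and for 29.3% of all probe sets.

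Complex I probe sets are bright: 57 of the 71 tested on chip 430A lie among its brightest 1358 probe sets. Of these 1358, 10.8% were called at 4 weeks and 6.41% were called lower, against 9 of 57 complex I probe sets (15.8%), all lower. The excess over probe sets of like brightness was thus smaller than over the whole array. With quantile normalization 4 of 84 were called, where 3.73% of all probe sets were, and the median difference was -0.06 with 49 of 84 below 0. The count also fell in fits without 1 control heart or without 4wkpost replicate 1 or 2, which hold fewer hearts. Without control replicate 1, 2 or 3 the calls were 1, 2 and 1, and without 4wkpost replicate 1 or 2 they were 2 and 1. Of all probe sets 1.38%, 0.709%, 0.436%, 1.16% and 0.495% were called in these 5 fits, beside 4.43% with all hearts. The reason for the fall was not tested. Ndufa13 alone kept its call in all 9 fits that left out 1 heart. Ndufb2, Ndufb7, Ndufb9, Ndufb11, Ndufa1, Ndufc1 and Ndufc2 each lost the call without any 1 control heart and without 4wkpost replicate 1 or 2; Ndufb2, Ndufb9, Ndufc1 and Ndufc2 also lost it without 4wkpost replicate 3, Ndufb9 without Akt replicate 3 and Ndufc2 without Akt replicate 2.

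With Akt on, no complex I probe set differed from the 4wkpost hearts past the threshold in limma (0 of 84), where 2.54% of all probe sets were called (1.46% lower, 1.08% higher). At an unadjusted p under 0.05 there were 16 of 84, beside 17.0% of all. The median difference was -0.11, beside 0.02 for all probe sets, and 62 of 84 were below 0 (57 with quantile normalization, median -0.09). The hearts did not overlap for 19 of 84 (15 lower, 4 higher), beside 20.6% of all. The smallest adjusted p was 0.053, of Ndufs1, the one complex I call (adjusted p = 0.0474) when 4wkpost replicate 1 was left out.

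Set against hearts before AAC, the Akt hearts had the broadest fall. Of 84 probe sets 25 fell and 2 rose (32.1%), beside 13.4% of all probe sets (6.51% lower, 6.86% higher). They stand for 20 of the 44 genes. The median difference was -0.22, beside -0.01 for all probe sets, with 63 of 84 below 0. The hearts did not overlap for 48 of 84 (41 lower, 7 higher), beside 32.1% of all. Among the brightest 1358 probe sets of chip 430A, 21 of 57 complex I probe sets were called (36.8%), all lower, beside 29.3% of all of them, 20.5% as lower. With quantile normalization 18 of 84 were called, all among the 27, beside 13.7% of all, and the median was -0.10. Without control replicate 1, 2 or 3 there were 13, 17 and 15 calls, and without Akt replicate 3 there were 14. Of all probe sets 9.1%, 7.3%, 6.26% and 7.81% were called in these 4 fits. This comparison and that of the 4wkpost hearts share the control hearts, so they are not independent.

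**Figure D1:**
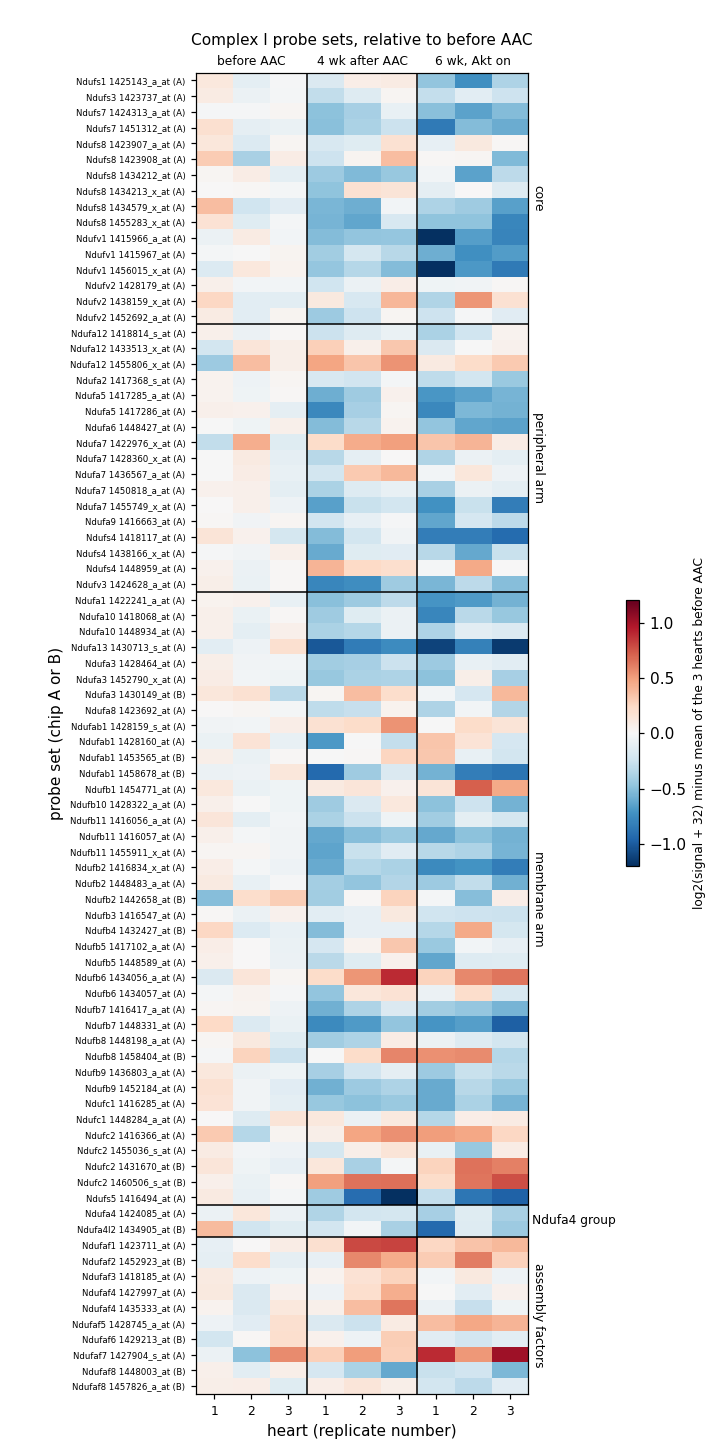
Heat map of the 84 tested complex I probe sets (rows, by role) in the 9 hearts (columns). Colour is log2(signal + 32) minus the mean of the 3 hearts before AAC, blue lower and red higher, with values beyond ±1.2 shown at the end colours. Blue dominates the core and membrane arm rows after AAC, while 8 of the 10 assembly factor rows have a 4-week mean above that before AAC.

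Among core subunits 7 of 16 probe sets were called lower with Akt on against control (43.8%), beside 13.4% of all called. At 4 weeks and between 4 weeks and Akt 0 of 16 were called, beside 4.43% and 2.54% of all. The lack of calls does not mean that levels were unchanged. At 4 weeks 13 of 16 lay below 0, and the hearts did not overlap for 7, all lower. Between 4 weeks and Akt 11 of 16 lay below 0, and the hearts did not overlap for 6, all lower. The median difference of the core subunits from control was -0.27 at 4 weeks and -0.41 with Akt on. Ndufv1, which binds NADH and the flavin at the tip of the peripheral arm, fell at each of its 3 probe sets. At 1415967_at it read 13.65, 13.67 and 13.70 before AAC, 13.25, 13.47 and 13.34 at 4 weeks, and 13.09, 12.94 and 13.00 with Akt on. The 3 groups form steps that do not overlap. The difference was -0.32 ± 0.10 (SE, n = 3; adjusted p = 0.0792) at 4 weeks, -0.34 ± 0.10 (SE, n = 3; adjusted p = 0.0883) from there to Akt on, and -0.66 ± 0.10 (SE, n = 3; adjusted p = 0.00202) in all, which is 1.58-fold lower on this scale. Probe set 1415966_a_at read 13.39, 13.56 and 13.43 before AAC, 12.94, 12.99 and 12.99 at 4 weeks, and 11.73, 12.80 and 12.67 with Akt on. Here Akt replicate 1 lies well below the other Akt hearts, and the difference of -1.06 ± 0.22 (SE, n = 3; adjusted p = 0.00896) from control was -0.72 at its smallest when 1 heart was left out. At 1456015_x_at the values were 13.16, 13.45 and 13.37 before AAC, 12.86, 12.99 and 12.81 at 4 weeks, and 11.90, 12.64 and 12.48 with Akt on, with the same low Akt heart and a difference of -0.99 ± 0.17 (SE, n = 3; adjusted p = 0.00396). All 3 Ndufv1 calls held in each of the 9 fits that left out 1 heart, and with quantile normalization.

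Ndufs7, which carries the last iron-sulfur cluster before ubiquinone, fell at both probe sets. At 1451312_at it read 14.18, 13.88 and 13.90 before AAC, 13.48, 13.60 and 13.73 at 4 weeks, and 13.14, 13.47 and 13.39 with Akt on, a difference of -0.65 ± 0.12 (SE, n = 3; adjusted p = 0.00614). At 1424313_a_at it read 13.12, 13.12 and 13.16 before AAC, 12.64, 12.73 and 13.04 at 4 weeks, and 12.63, 12.49 and 12.61 with Akt on, a difference of -0.55 ± 0.12 (SE, n = 3; adjusted p = 0.0106). At both, the Akt hearts lay wholly below the control hearts, and the calls held in all 9 fits without 1 heart.

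Ndufs1, the large iron-sulfur subunit that passes electrons on from the flavin, followed another course. Its values were 13.16, 12.91 and 13.02 before AAC, 12.85, 13.11 and 13.13 at 4 weeks, and 12.55, 12.29 and 12.66 with Akt on. The first 2 groups overlap fully and the Akt hearts lie below both. The difference was 0.00 ± 0.13 (SE, n = 3; adjusted p = 0.996) at 4 weeks, -0.53 ± 0.13 (SE, n = 3; adjusted p = 0.053) between 4 weeks and Akt, and -0.53 ± 0.13 (SE, n = 3; adjusted p = 0.0193) from control, a call that was lost without control replicate 1 or 3 or Akt replicate 2 and with quantile normalization (-0.36, adjusted p = 0.107).

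Ndufs8, another iron-sulfur subunit, is measured by 6 probe sets that do not move together. The 1 that fell, 1455283_x_at, read 14.12, 13.81 and 13.92 before AAC, 13.39, 13.32 and 13.76 at 4 weeks, and 13.47, 13.46 and 13.16 with Akt on, a difference of -0.58 ± 0.14 (SE, n = 3; adjusted p = 0.0178) that was lost without control replicate 1 or 3 or Akt replicate 3. With quantile normalization it was -0.36 (adjusted p = 0.0748). The other 5 ranged from -0.48 at 1434579_x_at to 0.01 at 1423907_a_at in the same comparison. Ndufv2, whose iron-sulfur cluster lies next to the flavin, was not called at any of 3 probe sets, with differences with Akt on from -0.13 to 0.11. Ndufs3, at its 1 probe set, differed by -0.14 (adjusted p = 0.492) at 4 weeks and by -0.22 (adjusted p = 0.213) with Akt on.

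**Figure D2:**
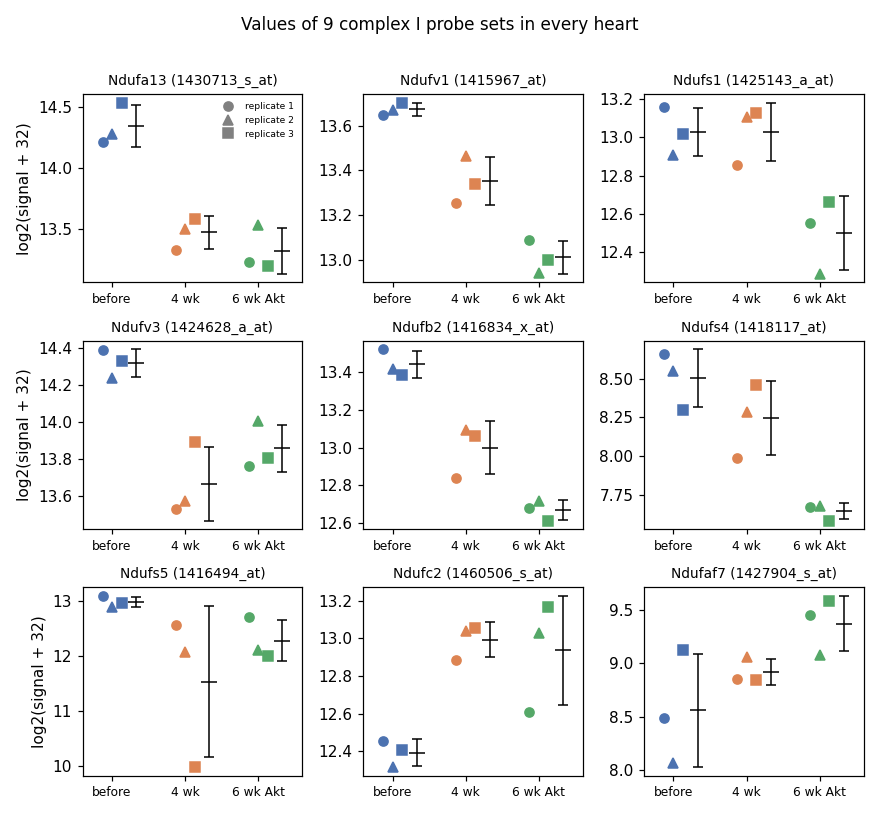
Level of 9 complex I probe sets in every heart, as log2(signal + 32), with the group mean and SD in black beside the points; axes differ between panels and do not start at 0. Ndufa13, Ndufv1 and Ndufb2 lie lower in every heart after AAC, Ndufs1 and Ndufs4 are lowest with Akt on, Ndufc2 lies higher in every heart after AAC, Ndufaf7 is higher with Akt on with an overlap between groups, and 4wkpost replicate 3 stands alone for Ndufs5.

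Of the supernumerary subunits of the peripheral arm, 1 of 17 probe sets fell at 4 weeks, 0 changed between 4 weeks and Akt, and 6 fell with Akt on against control. These are 5.88%, 0% and 35.3%, where 4.43%, 2.54% and 13.4% of all probe sets were called. The median differences of the 17 were -0.17, -0.17 and -0.32. The one call at 4 weeks was Ndufv3, a small subunit beside Ndufv1. It read 14.38, 14.24 and 14.33 before AAC, 13.53, 13.57 and 13.89 at 4 weeks, and 13.76, 14.00 and 13.81 with Akt on. All hearts after AAC lie below all hearts before it, and the means of both later groups differ by less than called. The difference was -0.65 ± 0.12 (SE, n = 3; adjusted p = 0.0157) at 4 weeks (1.57-fold lower), 0.19 ± 0.12 (SE, n = 3; adjusted p = 0.438) from there to Akt, and -0.46 ± 0.12 (SE, n = 3; adjusted p = 0.0224) in all. The 4-week call was lost without control replicate 1 or 3 or 4wkpost replicate 1 or 2. The last was lost without any 1 control heart or Akt replicate 3, and under quantile normalization (-0.16, adjusted p = 0.274).

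Ndufs4, a subunit whose loss in mice gives a fatal disease of the brain, had its clearest fall at probe set 1418117_at. The values were 8.66, 8.55 and 8.30 before AAC, 7.99, 8.29 and 8.46 at 4 weeks, and 7.67, 7.67 and 7.58 with Akt on. The Akt hearts lie close together, below all others, and the first 2 groups overlap. The difference was -0.60 ± 0.17 (SE, n = 3; adjusted p = 0.0937) from 4 weeks to Akt and -0.86 ± 0.17 (SE, n = 3; adjusted p = 0.00816) from control, the latter 1.82-fold lower and called in all 9 fits without 1 heart. The other tested probe sets of this gene were not called: 1448959_at differed by 0.15 (adjusted p = 0.548) and 1438166_x_at by -0.41 (adjusted p = 0.122) from control. At 1438166_x_at all Akt hearts still lay below all control hearts. The called probe set is dim, with a mean signal of 258.3, where the lowest kept on chip 430A was 127.3.

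Ndufa5, a subunit of the matrix arm, fell at both probe sets with Akt on. Its probe set 1417285_a_at read 12.58, 12.49 and 12.55 before AAC, 11.95, 12.11 and 12.60 at 4 weeks, and 11.84, 11.90 and 11.98 with Akt on, and 1417286_at read 13.19, 13.18 and 13.02 before AAC, 12.36, 12.74 and 13.15 at 4 weeks, and 12.36, 12.59 and 12.56 with Akt on. At both, 4wkpost replicate 3 is at the level of the control hearts and the Akt hearts lie below them. The differences from control were -0.63 ± 0.15 (SE, n = 3; adjusted p = 0.0166) and -0.63 ± 0.17 (SE, n = 3; adjusted p = 0.0303). The first was lost without control replicate 1 or 3, the second without any 1 heart of either group and with quantile normalization (-0.48, adjusted p = 0.0608).

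Ndufa6, a small subunit that anchors the mitochondrial acyl carrier protein and whose promoter is shown above, read 13.27, 13.22 and 13.33 before AAC, 12.76, 12.95 and 13.32 at 4 weeks, and 12.81, 12.66 and 12.64 with Akt on. Here too 4wkpost replicate 3 is at the control level. The difference with Akt on was -0.58 ± 0.13 (SE, n = 3; adjusted p = 0.0163), lost without control replicate 3 or Akt replicate 3 and with quantile normalization (-0.42, adjusted p = 0.0564). For Ndufa7 1 of 5 probe sets fell: 1455749_x_at read 10.55, 10.61 and 10.49 before AAC, 9.90, 10.28 and 10.33 at 4 weeks, and 9.83, 10.29 and 9.72 with Akt on, a difference of -0.61 ± 0.17 (SE, n = 3; adjusted p = 0.0355) that was lost without any 1 control heart, Akt replicate 1 or Akt replicate 3. The other Ndufa7 probe sets ranged from -0.19 to 0.28. Ndufa9, which lies near the ubiquinone site, differed by -0.38 (adjusted p = 0.0566), Ndufa2 by -0.32 (adjusted p = 0.0735), and the 3 tested probe sets of Ndufa12 by -0.19 to 0.22, none of them called.

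The membrane arm held most of the 4-week calls. Of 39 supernumerary probe sets 8 fell and 1 rose at 4 weeks, 0 changed between 4 weeks and Akt, and 12 fell and 1 rose with Akt on against control. The shares called were 23.1%, 0% and 33.3%, beside 4.43%, 2.54% and 13.4% of all probe sets. The median differences of the 39 were -0.23, -0.07 and -0.25. The largest called fall of a complex I probe set at 4 weeks was that of Ndufa13, also known as GRIM-19, a subunit that links the membrane to the peripheral arm. Its probe set 1430713_s_at read 14.21, 14.28 and 14.53 before AAC, 13.32, 13.50 and 13.58 at 4 weeks, and 13.23, 13.53 and 13.19 with Akt on. Each heart after AAC is below every heart before it, and both later groups overlap. The difference was -0.87 ± 0.13 (SE, n = 3; adjusted p = 0.00842) at 4 weeks, or 1.83-fold lower, and -1.02 ± 0.13 (SE, n = 3; adjusted p = 0.00109) with Akt on, or 2.03-fold lower. Both calls held in all 9 fits without 1 heart and with quantile normalization (-0.64, adjusted p = 0.0165, and -0.76, adjusted p = 0.0022). A probe set that Ndufa13 shares with Yjefn3, below the filter and so not tested, read 7.46, 7.98 and 7.51 before AAC, 6.55, 6.08 and 5.91 at 4 weeks, and 6.12, 5.98 and 5.49 with Akt on, with the same order of groups. The other such probe set, 1439903_at, also below the filter, read 5.85, 5.70 and 5.76 before AAC, 6.97, 6.50 and 5.75 at 4 weeks, and 5.83, 7.03 and 5.75 with Akt on, where the means of the later groups lie above that of the control hearts.

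Ndufb7, a subunit on the intermembrane side of the membrane arm, fell at 1448331_at in both comparisons with control. It read 13.71, 13.30 and 13.39 before AAC, 12.70, 12.79 and 12.99 at 4 weeks, and 12.76, 12.81 and 12.49 with Akt on, with no overlap between the control hearts and the rest. The differences were -0.64 ± 0.14 (SE, n = 3; adjusted p = 0.0274) and -0.78 ± 0.14 (SE, n = 3; adjusted p = 0.00464). Its other probe set, 1416417_a_at, read 14.14, 14.15 and 14.06 before AAC, 13.54, 13.74 and 13.95 at 4 weeks, and 13.70, 13.65 and 13.56 with Akt on. That difference was -0.37 ± 0.11 (SE, n = 3; adjusted p = 0.0763) at 4 weeks and -0.48 ± 0.11 (SE, n = 3; adjusted p = 0.0157) with Akt on, and the latter was lost without control replicate 1 or 2 or Akt replicate 3 and with quantile normalization (-0.19, adjusted p = 0.259).

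Ndufb2, a small membrane-spanning subunit whose promoter is also shown above, fell at both of its 430A probe sets in both comparisons. At 1416834_x_at the values were 13.52, 13.42 and 13.38 before AAC, 12.84, 13.09 and 13.06 at 4 weeks, and 12.68, 12.72 and 12.61 with Akt on. The 3 groups form descending steps, with -0.44 ± 0.10 (SE, n = 3; adjusted p = 0.0366) at 4 weeks, -0.33 ± 0.10 (SE, n = 3; adjusted p = 0.124) from there to Akt, and -0.77 ± 0.10 (SE, n = 3; adjusted p = 0.0015) in all. At 1448483_a_at the values were 13.84, 13.64 and 13.72 before AAC, 13.33, 13.26 and 13.38 at 4 weeks, and 13.30, 13.44 and 13.16 with Akt on, and here the later groups overlap. The differences from control were -0.41 ± 0.11 (SE, n = 3; adjusted p = 0.0483) and -0.44 ± 0.11 (SE, n = 3; adjusted p = 0.0183), the latter lost without control replicate 1 or 3 or Akt replicate 3. With quantile normalization the 4-week differences were -0.33 (adjusted p = 0.078) and -0.23 (adjusted p = 0.157), and that of 1448483_a_at with Akt on was -0.24 (adjusted p = 0.0807). Probe set 1442658_at on chip 430B had no call.

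Ndufa1, an X-linked subunit needed for assembly of the membrane arm, read 14.34, 14.36 and 14.21 before AAC, 13.80, 13.87 and 13.99 at 4 weeks, and 13.60, 13.63 and 13.74 with Akt on. These groups too descend without overlap. The differences from control were -0.42 ± 0.10 (SE, n = 3; adjusted p = 0.0332) and -0.65 ± 0.10 (SE, n = 3; adjusted p = 0.00207); quantile normalization gave -0.11 (adjusted p = 0.472) and -0.36 (adjusted p = 0.0149). Ndufb11, also X-linked, read 14.27, 14.18 and 14.16 before AAC, 13.59, 13.70 and 13.76 at 4 weeks, and 13.59, 13.71 and 13.64 with Akt on at 1416057_at. The later groups overlap and lie below the control hearts, with differences of -0.52 ± 0.09 (SE, n = 3; adjusted p = 0.015) and -0.56 ± 0.09 (SE, n = 3; adjusted p = 0.00319), or -0.24 and -0.26 with quantile normalization (adjusted p = 0.0884 and 0.0341). The other 2 Ndufb11 probe sets were not called, at -0.25 and -0.42 with Akt on.

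Ndufc1, a single-span membrane subunit, read 14.18, 13.97 and 13.90 before AAC, 13.57, 13.52 and 13.57 at 4 weeks, and 13.41, 13.64 and 13.46 with Akt on at 1416285_at. The control hearts lie above all others, and the differences were -0.47 ± 0.10 (SE, n = 3; adjusted p = 0.032) and -0.52 ± 0.10 (SE, n = 3; adjusted p = 0.00854), or -0.26 and -0.28 with quantile normalization (adjusted p = 0.106 and 0.0465). Its second probe set, 1448284_a_at, stayed near 0, at 0.06 (adjusted p = 0.86) and -0.06 (adjusted p = 0.836). Ndufb9, which binds the acyl carrier protein at the far end of the arm, read 14.65, 14.43 and 14.33 before AAC, 13.89, 14.03 and 14.10 at 4 weeks, and 13.87, 14.14 and 14.02 with Akt on at 1452184_at. The differences there were -0.46 ± 0.11 (SE, n = 3; adjusted p = 0.041) and -0.46 ± 0.11 (SE, n = 3; adjusted p = 0.019). At 1436803_a_at it read 14.40, 14.20 and 14.22 before AAC, 13.88, 14.04 and 14.17 at 4 weeks, and 13.84, 14.00 and 13.95 with Akt on, with -0.25 ± 0.11 (SE, n = 3; adjusted p = 0.198) and -0.34 ± 0.11 (SE, n = 3; adjusted p = 0.0495). Quantile normalization gave -0.13 (adjusted p = 0.369) at 4 weeks for the first, and -0.15 (adjusted p = 0.248) and -0.03 (adjusted p = 0.871) with Akt on. The call of 1452184_at with Akt on was lost without control replicate 1 or 2 or Akt replicate 3, that of 1436803_a_at without any 1 heart of either group or 4wkpost replicate 2.

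The 2 remaining falls were each at 1 of several probe sets. Ndufa10, a large subunit on the matrix side of the membrane, at 1418068_at read 9.79, 9.65 and 9.74 before AAC, 9.29, 9.58 and 9.66 at 4 weeks, and 8.94, 9.40 and 9.27 with Akt on, a difference with Akt on of -0.52 ± 0.16 (SE, n = 3; adjusted p = 0.0447), while its probe set 1448934_at differed by -0.22 (adjusted p = 0.247). Ndufab1, the mitochondrial acyl carrier protein, fell at 1458678_at, which read 7.31, 7.32 and 7.51 before AAC, 6.45, 6.95 and 7.21 at 4 weeks, and 6.81, 6.55 and 6.50 with Akt on, a difference of -0.76 ± 0.22 (SE, n = 3; adjusted p = 0.0396). That probe set is on chip 430B and dim, with a mean signal of 96.57, where the lowest kept was 47.3. The other tested Ndufab1 probe sets did not fall: 1428159_s_at differed by 0.13 (adjusted p = 0.54), 1428160_at by 0.10 (adjusted p = 0.79) and 1453565_at by 0.002 (adjusted p = 0.997). Both calls were lost without any 1 control heart, 4wkpost replicate 2 or Akt replicate 3, that of Ndufa10 also without Akt replicate 1 and that of Ndufab1 without Akt replicate 2.

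Ndufc2, a subunit of the membrane arm, was the exception in direction. Its probe set 1460506_s_at on chip 430B read 12.46, 12.32 and 12.41 before AAC, 12.89, 13.04 and 13.06 at 4 weeks, and 12.61, 13.03 and 13.17 with Akt on. All hearts after AAC lie above all hearts before it, with differences of 0.60 ± 0.15 (SE, n = 3; adjusted p = 0.0451) and 0.54 ± 0.15 (SE, n = 3; adjusted p = 0.0343), a 1.52-fold and 1.46-fold rise. The call with Akt on was lost without any 1 control heart, 4wkpost replicate 2, or Akt replicate 2 or 3. With quantile normalization the 4-week difference was 0.49 (adjusted p = 0.0664). On chip 430A, 1416366_at differed by 0.37 (adjusted p = 0.246) and 0.41 (adjusted p = 0.152), and 1455036_s_at by 0.01 (adjusted p = 0.991) and -0.15 (adjusted p = 0.561), so the probe sets of this gene differ in sign.

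Ndufs5, singled out after its values were seen, is a case of 1 heart that sets a value. This subunit on the intermembrane side read 13.09, 12.89 and 12.96 before AAC, 12.56, 12.07 and 9.98 at 4 weeks, and 12.70, 12.12 and 12.01 with Akt on at 1416494_at. The difference at 4 weeks of -1.45 ± 0.48 (SE, n = 3; adjusted p = 0.106) is the largest in size of the 84 and was not called; 4wkpost replicate 3 stands far below the other 8 hearts. A probe set that Ndufs5 shares with its pseudogene, 1416495_s_at, read 12.35, 12.29 and 12.43 before AAC, 12.11, 12.08 and 12.07 at 4 weeks, and 11.99, 11.95 and 11.89 with Akt on, with no such drop in that heart. There the differences were -0.27 (adjusted p = 0.143) and -0.42 (adjusted p = 0.0186). The probe set that Ndufs6 shares with Ndufs6b, 1433603_at, read 13.42, 13.32 and 13.43 before AAC, 12.85, 12.99 and 13.10 at 4 weeks, and 12.98, 12.78 and 12.60 with Akt on, with -0.41 (adjusted p = 0.0693) at 4 weeks and -0.60 (adjusted p = 0.00732) with Akt on. No other shared probe set past the filter was called. With Akt on against control, 1428075_at and 1428076_s_at of Ndufb4, Ndufb4b and Ndufb4c differed by -0.36 and -0.25. Probe set 1453806_at of Ndufb2 and Adck2 differed by -0.43. Those of Ndufa11 and Ndufa11b, 1429708_at and 1444154_at, differed by 0.09 and 0.08, and 1447919_x_at of Ndufab1 and Ndufab1-ps by 0.08. At 4 weeks the last differed by 0.31, with all hearts above the control hearts.

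The membrane arm genes without a call included Ndufa3, Ndufa8, Ndufb1, Ndufb3, Ndufb4, Ndufb5, Ndufb6, Ndufb8 and Ndufb10. With Akt on against control they ranged from -0.43 for Ndufb10 to 0.50 for Ndufb6 at 1434056_a_at. Ndufb1 differed by 0.44 (adjusted p = 0.0815) with Akt on, and Ndufb6 at 1434056_a_at by 0.55 (adjusted p = 0.0962) at 4 weeks and 0.50 (adjusted p = 0.0839) with Akt on. Ndufa8, a twin-cysteine subunit on the intermembrane side, was at -0.25 (adjusted p = 0.214).

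**Figure D3:**
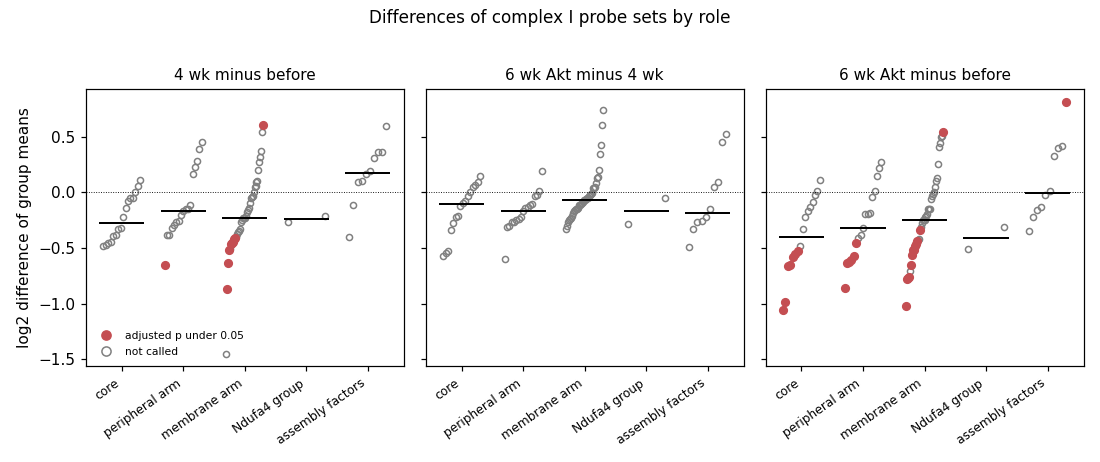
Log2 difference of group means for each tested probe set, by role and comparison, with called probe sets filled and the median of each role as a bar. Called falls lie in the core, peripheral and membrane groups, no point is filled in the middle comparison, and the assembly factor median is 0.18 at 4 weeks.

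Ndufa4 and Ndufa4l2 were described apart, since Ndufa4 is now counted as a subunit of cytochrome c oxidase and Ndufa4l2 is its relative known to be induced in hypoxia. Neither was called. Ndufa4 read 14.02, 14.23 and 14.02 before AAC, 13.73, 13.86 and 13.88 at 4 weeks, and 13.68, 13.94 and 13.70 with Akt on. All 6 hearts after AAC lie below the 3 before it, with differences of -0.26 (adjusted p = 0.175) and -0.31 (adjusted p = 0.076), but quantile normalization gave 0.00023 (adjusted p = 0.999) and -0.04 (adjusted p = 0.807). Ndufa4l2 read 10.26, 9.64 and 9.73 before AAC, 9.65, 9.84 and 9.48 at 4 weeks, and 8.94, 9.72 and 9.44 with Akt on, with a wide spread in the control and Akt groups and differences of -0.22 (adjusted p = 0.604) and -0.51 (adjusted p = 0.139).

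Among the Ndufaf assembly factors no probe set fell past the threshold in any comparison; their difference from the subunits was not tested. At 4 weeks 8 of 10 probe sets were above 0, with a median of 0.18 and 0 calls, beside 4.43% of all probe sets called. Between 4 weeks and Akt the median was -0.19 with 0 calls, beside 2.54%. With Akt on against control it was -0.01 with 1 call (10%), a rise, beside 13.4%. That rise was of Ndufaf7, a methyltransferase that acts early in assembly. It read 8.49, 8.07 and 9.12 before AAC, 8.85, 9.06 and 8.85 at 4 weeks, and 9.45, 9.08 and 9.58 with Akt on. Control replicate 3 lies above the lowest Akt heart, so the groups overlap, and the difference of 0.81 ± 0.23 (SE, n = 3; adjusted p = 0.0395) was lost without control replicate 1 or 2, 4wkpost replicate 2, or Akt replicate 1 or 3.

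Ndufaf1, a core member of the assembly complex that builds the proton-pumping part, had the smallest adjusted p among them at 4 weeks. It read 9.61, 9.72 and 9.80 before AAC, 9.90, 10.50 and 10.52 at 4 weeks, and 9.95, 10.05 and 10.10 with Akt on. All later hearts lie above the control hearts, and the 4wkpost and Akt hearts overlap, with 0.60 ± 0.17 (SE, n = 3; adjusted p = 0.0629), then -0.27 ± 0.17 (SE, n = 3; adjusted p = 0.447). Ndufaf5, which modifies Ndufs7, had it between 4 weeks and Akt. It read 8.97, 8.89 and 9.23 before AAC, 8.86, 8.77 and 9.13 at 4 weeks, and 9.41, 9.50 and 9.43 with Akt on, with every Akt heart above every other and a difference of 0.53 ± 0.15 (SE, n = 3; adjusted p = 0.0868). Neither passed the threshold.

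Both probe sets of Ndufaf4, an early factor of the ubiquinone module, were higher at 4 weeks and back near control with Akt on, without a call. Probe set 1435333_at read 8.76, 8.55 and 8.85 before AAC, 8.78, 9.09 and 9.36 at 4 weeks, and 8.65, 8.44 and 8.66 with Akt on, and 1427997_at read 10.09, 9.80 and 10.02 before AAC, 9.91, 10.18 and 10.41 at 4 weeks, and 9.97, 9.85 and 10.02 with Akt on. Their differences between 4 weeks and Akt were -0.49 (adjusted p = 0.16) and -0.22 (adjusted p = 0.499). Ndufaf3, the partner of Ndufaf4, read 10.55, 10.39 and 10.40 before AAC, 10.49, 10.62 and 10.71 at 4 weeks, and 10.42, 10.57 and 10.38 with Akt on. It differed from control by 0.16 (adjusted p = 0.485) and 0.01 (adjusted p = 0.974). Ndufaf2, which joins late in assembly, read 8.19, 8.51 and 8.19 before AAC, 8.20, 8.87 and 8.74 at 4 weeks, and 8.60, 8.91 and 8.57 with Akt on, with 0.40 (adjusted p = 0.201) with Akt on. Ndufaf6 read 8.58, 8.82 and 9.0 before AAC, 8.85, 8.74 and 9.09 at 4 weeks, and 8.66, 8.58 and 8.67 with Akt on, with all Akt hearts below all 4wkpost hearts and both overlapping the control hearts; it differed by -0.26 (adjusted p = 0.442) between 4 weeks and Akt. Ndufaf8, which works with Ndufaf5, read 8.93, 8.74 and 8.94 before AAC, 8.67, 8.49 and 8.26 at 4 weeks, and 8.60, 8.64 and 8.33 with Akt on at 1448003_at and 11.53, 11.54 and 11.31 before AAC, 11.54, 11.61 and 11.53 at 4 weeks, and 11.24, 11.14 and 11.32 with Akt on at 1457826_a_at. The first differed from control by -0.40 (adjusted p = 0.168) at 4 weeks and the second by 0.10 (adjusted p = 0.684), in opposite directions.

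Complex I assembly factors with other names gave 17 tested probe sets. Of these 1 rose at 4 weeks (5.88%), 0 changed between 4 weeks and Akt, and 2 rose with Akt on against control (11.8%). Over the whole array 4.43%, 2.54% and 13.4% were called in these comparisons, so the shares are close. Acad9, a partner of Ndufaf1, read 6.99, 6.23 and 7.49 before AAC, 9.39, 9.15 and 8.77 at 4 weeks, and 7.84, 9.27 and 9.67 with Akt on at 1453206_at. All later hearts lie above the control hearts, with 2.20 ± 0.42 (SE, n = 3; adjusted p = 0.0188) and 2.03 ± 0.42 (SE, n = 3; adjusted p = 0.00942). The other 2 Acad9 probe sets were not called, at 0.65 and 0.66 with Akt on. Tmem70, which helps to build ATP synthase and complex I, read 10.05, 9.96 and 9.84 before AAC, 10.33, 10.80 and 10.89 at 4 weeks, and 10.32, 10.87 and 10.95 with Akt on, with 0.73 ± 0.19 (SE, n = 3; adjusted p = 0.0526) and 0.76 ± 0.19 (SE, n = 3; adjusted p = 0.0221).

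The pooled nuclear subunits of complexes II to V gave 78 tested probe sets. Of these 15 fell at 4 weeks (19.2%), 0 changed between 4 weeks and Akt, and 21 fell with Akt on against control (26.9%). None rose, and 4.43%, 2.54% and 13.4% of all probe sets were called. The medians were -0.28, -0.03 and -0.29, beside -0.22, -0.11 and -0.26 for the complex I subunits. The single complexes varied. Complex II had a median of -0.04 at 4 weeks, with 4 of 8 above 0. Complex III had 0.14 between 4 weeks and Akt, with 12 of 17 above 0. The medians of complex IV and ATP synthase were -0.32 and -0.29 at 4 weeks and -0.03 and -0.05 between 4 weeks and Akt. Atp5d of ATP synthase differed by -0.81 (adjusted p = 0.00573) and -0.62 (adjusted p = 0.00465), Cox6c of cytochrome c oxidase by -0.67 (adjusted p = 0.0154) and -0.69 (adjusted p = 0.00391), Uqcr11 of complex III by -0.53 (adjusted p = 0.0161) and -0.64 (adjusted p = 0.00233), and Sdhb of complex II by -0.61 (adjusted p = 0.0335) and -0.70 (adjusted p = 0.00751). No test of a difference between complex I and the other complexes was made.

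Probe sets of the same gene often disagreed. Of the 44 genes 22 have more than 1 tested probe set, and in 13 of them these lie on both sides of 0 at 4 weeks, in 9 between 4 weeks and Akt, and in 10 with Akt on against control. The median gap between the highest and the lowest probe set of a gene was 0.45, 0.23 and 0.36, as large as most of the group differences. Ndufv1, Ndufs7 and Ndufa5 are the genes whose probe sets were all called with Akt on among those with 2 or more, together with Ndufb7 and the tested pair of Ndufb9.

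Within each group the hearts differed in their general complex I level. The median deviation of the 84 probe sets from their 9-heart means was 0.20, 0.12 and 0.14 before AAC, -0.17, -0.01 and 0.14 at 4 weeks, and -0.16, -0.02 and -0.13 with Akt on. So 4wkpost replicate 3 was at the control level, and 63 of its 84 probe sets lay above their own mean, as against 61 to 65 in control hearts and 14 in 4wkpost replicate 1. The mean log2 level of the atrial markers was 8.51, 11.17 and 10.29, then 10.53, 8.72 and 8.02, then 11.27, 8.20 and 9.55 in the same hearts. In each group the heart with the most atrial signal had the lowest complex I level and the heart with the least had the highest. With quantile normalization this order held in the control and 4wkpost hearts and not in the Akt hearts. With the atrial level as a covariate the calls were 12 at 4 weeks, 0 between 4 weeks and Akt and 34 with Akt on against control, where 3.47%, 2.77% and 14.8% of all probe sets were called.

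**Figure D4:**
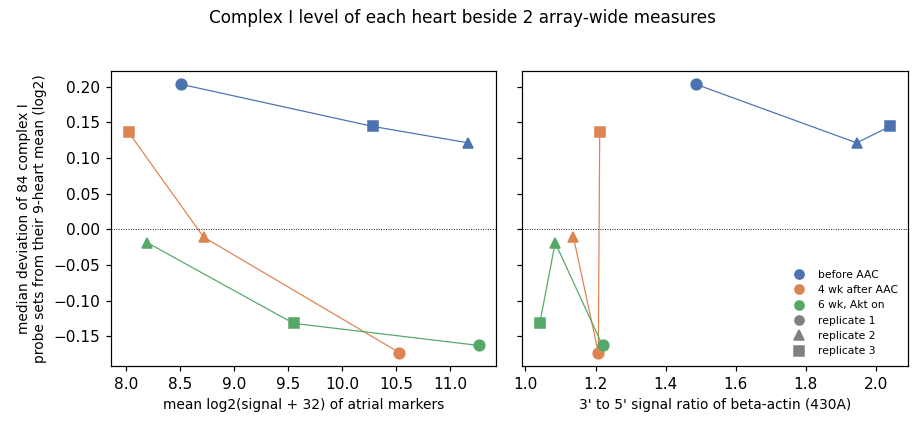
Median deviation of the 84 tested complex I probe sets from their 9-heart means (log2) in each heart, against the mean log2 level of the atrial markers (left) and against the 3' to 5' ratio of β-actin on chip 430A (right). Lines join the hearts of a group: at left each line descends from the least to the most atrial heart, and at right the control hearts lie apart from both other groups, at ratios of 1.49 and above.

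Markers of other cell types moved as well. For comparison, 4.43% of all probe sets were called at 4 weeks, 2.54% with Akt on against 4 weeks, and 13.4% against control. Fibroblast markers had 0 of 16 probe sets called at 4 weeks, 6 higher with Akt on against 4 weeks and 6 higher against control, and their mean log2 level ran from 9.32 to 9.54 in control, 9.06 to 9.71 in 4wkpost and 9.86 to 10.44 in Akt hearts. Endothelial markers had 2, 0 and 9 of 15 lower, with a mean level of 10.11 to 10.22, 9.73 to 9.93 and 9.55 to 9.68. Heart muscle markers had a median difference of -0.28 at 4 weeks, -0.002 between 4 weeks and Akt and -0.30 with Akt on against control, beside -0.22, -0.11 and -0.26 for the complex I subunits. Of their 20 probe sets 1 fell and 1 rose at 4 weeks (10%) and 0 changed between 4 weeks and Akt. With Akt on against control 6 fell and 1 rose (35%). The rises were of Myh6 at 1417729_at at 4 weeks (1.12, adjusted p = 0.0455) and of Ryr2 at 1421126_at with Akt on (1.51, adjusted p = 0.0115). The other Myh6 probe set, 1448826_at, went the other way. It differed by -0.16 (adjusted p = 0.411) at 4 weeks and by -0.38 (adjusted p = 0.0311) with Akt on, where it was called lower. In such bulk RNA fewer heart muscle cells and less RNA per cell cannot be told apart, and the part of these cell types in the complex I values was not tested.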

How the data were processed

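Total RNA from snap-frozen hearts was labelled with biotin and hybridized to 430A and 430B arrays, 1 of each for the 9 hearts (18 arrays). The deposited values are MAS5 signal intensities, per the submitters' processing notes; version and handling of replicates are not given in the sources used here. In the deposited tables all arrays of a chip share 1 trimmed mean (500.2 on 430A, 122.5 on 430B, 2% trimmed from each end), so levels were not compared across chips.

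Each array was scaled to its chip's mean trimmed mean and transformed to log2(signal + 32), which understates changes of low signals. On each chip the 60% brightest by mean signal were kept (27083 in all). The 3 groups were fitted together with limma 3.58.1 in R 4.3.3, per chip, with a variance trend. P-values are two-sided, adjusted by Benjamini-Hochberg over both chips. Precision is limited by having few arrays: group differences of complex I probe sets had standard errors with a median of 0.14, against 0.20 over the whole fit. The scripts were tested on simulated data.

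The members, gene lists, tests and alternatives were chosen with earlier results of these data known. Values in every heart are given for called members, for the lowest p of each role and comparison, and for assembly factors. Same-numbered replicates did not deviate together (1 of 18 correlations over 0.1, -0.24 to 0.14), so samples were not paired. Alternatives were quantile normalization, other pseudocounts (16 and 64), filters and variance models, the replicate number as a block, marker and actin covariates, and leaving out each heart.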

Additional observations from a re-analysis of the deposited data

How the results depend on the processing

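For the 46 named combinations of probe set and comparison, 23 alternative settings gave 802 values with the direction and side of the threshold as reported, 8 that newly passed, 228 that no longer passed and 1 that turned sign, Ndufa4 at 4 weeks under quantile normalization (0.00023, adjusted p = 0.999). At 4 weeks the 10 calls became 4 with quantile normalization (median -0.064), 3 without the filter, 2 without the variance trend, 3 with the replicate block, 4 with 4wkpost replicates 1 and 3 averaged, and 0 with the actin covariate (median -0.282). They became 14 with only the 2 groups compared in the fit, 12 with adjustment within each chip and 12 with the atrial covariate. Leaving out 1 heart gave 1 to 13 calls and a median from -0.249 to -0.114. Between 4 weeks and Akt the 0 calls became 1 with 40% of probe sets kept, 1 with 1 probe set per gene and 1 with adjustment within each chip. Leaving out 1 heart gave 0 to 1, and the median ran from -0.2 to -0.033. With Akt on against control the 27 calls became 15 with 1 probe set per gene, which tests fewer probe sets, 17 without the variance trend and 0 with the actin covariate (median -0.401), and quantile normalization gave a median of -0.101. They became 31 with 4wkpost replicates 1 and 3 averaged and 34 with the atrial covariate. Leaving out 1 heart gave 13 to 31 calls and a median from -0.269 to -0.188. The replicate block, a pairing that the numbers do not bear out, gave 25 calls in that comparison, of which 24 were among the 27. Some settings have a known limit: the block, fewer samples, fewer probe sets tested or the actin ratio's split along the groups. The cause of the change in calls was not tested for any setting. With 3 arrays a group, signals near background could not be resolved.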
